A study of Homo sapiens with 32 samples.

Results

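Expression was compared for 10 genes whose proteins sit on the surface of a tumour cell and are read by immune cells: CD274, PDCD1LG2, MICA, MICB, ULBP1, ULBP2, ULBP3, CD47, NECTIN2 and PVR. They were taken by name from a table of 60728 genes, each name matching 1 gene ID. The cells were 2 established human cancer lines, the melanoma line SK-MEL-147 and the lung adenocarcinoma line A549. Each line had 4 groups with 4 RNA-seq libraries apiece, 32 libraries in all, collected on day 7 after treatment began. Senescence, a lasting arrest of cell division, was induced with doxorubicin (100 nM in both lines), a drug that damages DNA, or with palbociclib (1 uM in SK-MEL-147 and 5 uM in A549), an inhibitor of the cell-cycle kinases CDK4 and CDK6. Both drugs were taken away after 72 h. A diapause-like state was induced with INK128 (100 nM in SK-MEL-147 and 200 nM in A549), an inhibitor of the kinase mTOR, which was renewed with the medium every 3 days. The controls of each line are labelled ctr, with no vehicle named. All cells grew in DMEM with 10% serum. The series' design text names SK-Mel-103 as the melanoma line given INK128, whereas the label of every such sample reads SK-MEL-147, and the labels were followed here.

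CD274 and PDCD1LG2 encode PD-L1 and PD-L2, the ligands of PD-1, a receptor that dampens T cell activity. MICA, MICB and the ULBP proteins are stress-induced relatives of MHC class I that engage NKG2D, an activating receptor of natural killer (NK) cells and of some T cells. PVR (CD155) and NECTIN2 (CD112) bind the activating receptor DNAM-1 and also inhibitory receptors, TIGIT among them. CD47 binds SIRPA on macrophages and restrains phagocytosis. PD-L1 is a well-known target of interferon signalling, and NKG2D ligands are known for their regulation by DNA damage, heat shock and growth signals.

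Proximal promoters are shown for CD274, which fell in SK-MEL-147 and in A549 was called, as higher, with all 3 drugs once replicate numbers were taken as pairs, for MICA and MICB, which fell with every drug, and for ULBP2 and ULBP3, genes of the same family whose responses parted. The sequences are those of RefSeq on GRCh38.p14, from 250 bases before to 50 bases after the start that RefSeq gives, read 5′ to 3′ on the gene's own strand. For MICA and MICB that start lies inside the longer GENCODE gene bounds given further on. A promoter of the table matched 9 of the 10 genes by symbol, and the exception was PDCD1LG2. Capitals mark matches, on either strand, to 7 short motifs, in which N is any base: the interferon response element core GAAANNGAA, the STAT motif GAS TTCNNNGAA, the NF-kB-like GGANTTTCC, the heat shock element core GAANNTTC, the AP-1-like TGANTCA, the GC box GGGCGG and the E-box CACGTG.

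The CD274 stretch lies at chr9:5450292-5450591 (plus strand), MICA at chr6:31403345-31403644 (plus), MICB at chr6:31497895-31498194 (plus), ULBP2 at chr6:149941764-149942063 (plus) and ULBP3 at chr6:150069072-150069371 (minus).
CD274: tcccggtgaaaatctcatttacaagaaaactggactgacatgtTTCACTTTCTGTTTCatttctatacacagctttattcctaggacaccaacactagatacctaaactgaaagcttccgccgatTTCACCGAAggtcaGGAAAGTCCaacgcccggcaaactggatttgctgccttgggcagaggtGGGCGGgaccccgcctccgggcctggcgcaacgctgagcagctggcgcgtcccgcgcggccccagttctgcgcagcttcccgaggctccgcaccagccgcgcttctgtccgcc
MICA: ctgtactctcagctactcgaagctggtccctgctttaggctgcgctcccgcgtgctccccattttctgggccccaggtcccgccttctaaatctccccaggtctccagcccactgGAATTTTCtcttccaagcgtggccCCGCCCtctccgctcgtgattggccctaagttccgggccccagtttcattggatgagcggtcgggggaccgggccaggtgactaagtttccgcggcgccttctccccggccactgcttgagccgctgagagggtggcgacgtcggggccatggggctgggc
MICB: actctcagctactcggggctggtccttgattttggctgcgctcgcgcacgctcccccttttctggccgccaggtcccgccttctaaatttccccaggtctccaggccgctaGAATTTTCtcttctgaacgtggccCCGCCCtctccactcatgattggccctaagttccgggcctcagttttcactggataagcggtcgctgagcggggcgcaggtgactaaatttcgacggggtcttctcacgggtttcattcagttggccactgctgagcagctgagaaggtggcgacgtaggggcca
ULBP2: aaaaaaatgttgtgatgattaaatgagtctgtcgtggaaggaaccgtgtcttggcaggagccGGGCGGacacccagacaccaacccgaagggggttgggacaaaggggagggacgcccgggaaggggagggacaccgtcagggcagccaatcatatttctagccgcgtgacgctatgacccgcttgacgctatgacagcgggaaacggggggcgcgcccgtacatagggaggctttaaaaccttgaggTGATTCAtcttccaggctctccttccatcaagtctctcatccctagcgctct
ULBP3: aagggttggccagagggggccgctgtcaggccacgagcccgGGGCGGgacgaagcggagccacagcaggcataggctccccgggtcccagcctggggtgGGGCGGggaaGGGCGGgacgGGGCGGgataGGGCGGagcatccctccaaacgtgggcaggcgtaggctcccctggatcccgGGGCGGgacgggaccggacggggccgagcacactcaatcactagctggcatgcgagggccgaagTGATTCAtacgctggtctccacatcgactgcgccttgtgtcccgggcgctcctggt

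The CD274 stretch held 2 interferon element cores that share bases (first bases at -207 and -201 from the start), a GAS at -125, an NF-kB-like motif at -111 and a GC box at -63. Of all 35116 promoters in the RefSeq table, 8.11% held the interferon core, 7.66% a GAS, 1.64% the NF-kB-like motif and 45% a GC box. The MICA and MICB stretches aligned with 77.5% identical bases, and each held a heat shock core (at -135 in MICA and -139 in MICB), which 6.77% of promoters hold. ULBP2 and ULBP3 aligned with 50.8% identical bases, close to the 50.6% of the unrelated stretches of CD274 and MICA. Both ULBP2 and ULBP3 held the AP-1-like motif across the start, as TGATTCA, with its first base at -2 and -6. With any middle base allowed, 7.71% of promoters hold it. ULBP3 held 6 GC boxes and ULBP2 held 1. No E-box, found in 7.26% of promoters, was among these letters. A match is a string of letters in the window and does not show that a factor binds there.

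Library totals ran from 17929732 to 32407057 counts in SK-MEL-147 and from 28150560 to 33331334 in A549. In A549 the libraries titled 2 and 2-2 both carry replicate number 2 and were added, giving 3 samples per group, against 4 in SK-MEL-147. Library 2 stood apart from 2-2 (SD of log2 ratios over genes 0.419 to 0.539 within the groups). Library 1 stood apart from all the others, at 0.439 to 0.692 from 2, 0.378 to 0.605 from 2-2 and 0.388 to 0.621 from 3. By contrast, 2-2 lay closest to 3 (0.155 to 0.206), so A549 replicates 2 and 3 may not be independent. No label says that replicates were separate cultures, so p-values measure only the spread between samples. Among leukocyte markers, MS4A1 was at 0 in every group. The summed level of these markers was 0.0294 to 1.16 CPM (counts per 1e+06 counts, with scaled library totals) over all SK-MEL-147 samples. In A549 it was 11.5 to 37.6 with doxorubicin, 10.2 to 23.0 with palbociclib, 13.5 to 17.8 with INK128 and 7.15 to 10.3 CPM in control samples, nearly all from CD14 and ITGAM. The melanocyte regulator SOX10 averaged 208 to 551 CPM in the SK-MEL-147 groups, but the pigment genes MLANA and TYR were at or near 0 in them. The mitochondrial share of counts was higher in the drug groups, at means of 4.42% (doxorubicin), 5.26% (palbociclib) and 3.70% (INK128), against 2.72% in controls of SK-MEL-147. In A549 it was 12% with doxorubicin, 12% with palbociclib and 13.2% with INK128, against 7.70% in controls. There replicate 1 had 18.3% with doxorubicin and 17.3% with palbociclib, and the other samples of these groups had 8.48% to 9.71%. INK128 samples of A549 had 12.1% to 14.3% and controls 7.23% to 8.26%. The summed level of fibroblast markers averaged 97.6, 128 and 14 CPM with doxorubicin, palbociclib and INK128 in SK-MEL-147, against 19.4 CPM in controls, mostly from LUM and COL1A1. In A549 it averaged 41.3, 34.8 and 10.8 CPM, against 15.1 CPM. The epithelial sum in A549 averaged 12900, 13700 and 4450 CPM, against 10000 CPM. The part of these differences in the results was not tested. A549 expressed keratins (KRT8 1640 to 6430 CPM by group) and little EPCAM (3.47 to 6.68 CPM).

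Scaled for gene length as TPM (reads per base of exon, summed to 1e+06 per sample, with the exon length of GENCODE 29), PVR was the most abundant of the 10 genes in the controls of both lines, at 105 ± 16.5 TPM in SK-MEL-147 (SD, n = 4) and 133 ± 4.66 TPM in A549 (SD, n = 3). The lines parted most at the PD-1 ligands. CD274 stood at 76.6 ± 15.6 TPM in untreated SK-MEL-147 and at 0.843 ± 0.497 TPM in untreated A549, and PDCD1LG2 at 9.06 ± 3.96 and 0.0962 ± 0.121 TPM. In untreated SK-MEL-147 the order was PVR, CD274, NECTIN2 (52.7 TPM), ULBP3 (51.7), MICA (44.4), MICB (28.8), CD47 (20.7), ULBP2 (14.6), PDCD1LG2 and ULBP1 (0.264). In untreated A549 it was PVR, NECTIN2 (67.7 TPM), MICA (31.6), MICB (18.3), ULBP3 (17.2), CD47 (16.8), ULBP2 (3.65), ULBP1 (3.11), CD274 and PDCD1LG2. The neighbours NECTIN2 and ULBP3 in SK-MEL-147, MICB, ULBP3 and CD47 in A549, and ULBP2 and ULBP1 in A549 differed by less than their SDs.

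**Figure D1:**
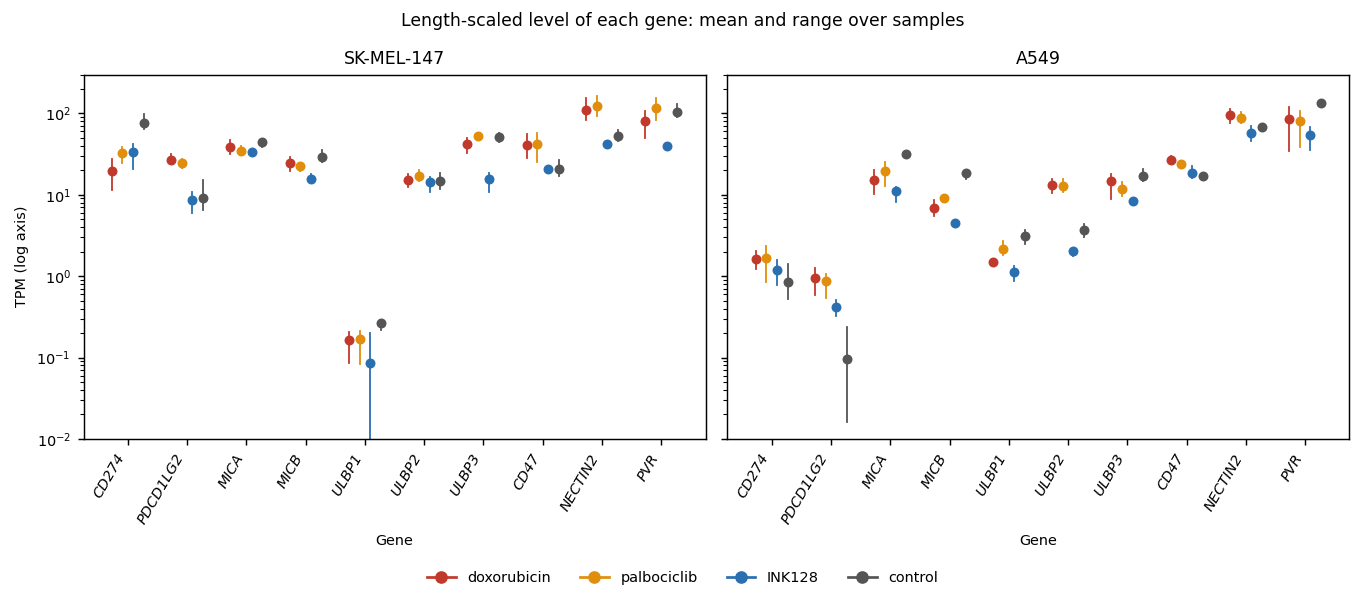
Level of each gene in TPM (log axis) by group, SK-MEL-147 left and A549 right; points are means and bars run from the lowest to the highest sample (n = 4 samples per group in SK-MEL-147 and 3 in A549; a bar that reaches the axis includes a sample at 0). CD274 and PDCD1LG2 sit far higher in SK-MEL-147, ULBP1 is higher in A549, and PVR and NECTIN2 are high in both lines.

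Over all 8 groups the order of mean CPM was as follows. For CD274 it ran from SK-MEL-147 controls (111 CPM) through INK128 (51.6), palbociclib (46.5) and doxorubicin (27.6) in SK-MEL-147 to palbociclib (3.59), doxorubicin (3.09), INK128 (2.42) and control (1.42) in A549. Neighbours overlapped except below the SK-MEL-147 controls and between the lines. All SK-MEL-147 groups of PDCD1LG2 (7.49 to 21.8 CPM) stood above all A549 groups (0.0933 to 1.03), and all A549 groups of ULBP1 (1.70 to 3.98) above all SK-MEL-147 groups (0.102 to 0.297). For ULBP2, the 4 SK-MEL-147 groups (6.98 to 8.08) and the 2 senescent A549 groups (8.43 and 8.61) each overlapped the next, with A549 controls (2.01) and INK128 (1.34) apart below them. CD47 means were highest in the 4 senescent groups of both lines (98.8 to 123) and lower in the other 4 (56.4 to 72.0), although the lowest doxorubicin and palbociclib samples of SK-MEL-147 (78.5 and 79.9) lay below the highest INK128 sample of A549 (80.8). NECTIN2 was likewise highest in those 4 (143 to 170), though the lowest of them overlapped A549 controls (103). PVR was highest in A549 controls (191), which overlapped no other group, and lowest in SK-MEL-147 with INK128 (53.3). MICA, MICB and ULBP3 each had A549 with INK128 as the group with the lowest mean (12.4, 6.03 and 4.03), and for ULBP3 its samples overlapped those of SK-MEL-147 with INK128.

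Untreated SK-MEL-147 and untreated A549 differed in 7 of the 10 genes (edgeR's quasi-likelihood test with Benjamini-Hochberg adjustment over all genes, called at an adjusted p under 0.05, as in all that follows), and 66.7% of the 21761 genes tested differed. CD274 was higher in SK-MEL-147 by 6.33 ± 0.46 (log2, SE; adjusted p = 1.03e-11) and PDCD1LG2 by 6.54 ± 0.45 (3.15e-12). ULBP2 was higher by 1.80 ± 0.18 (log2; adjusted p = 3.78e-09), ULBP3 by 1.40 ± 0.18 (3.67e-07) and MICB by 0.45 ± 0.13 (0.00423). ULBP1 was lower in SK-MEL-147, with a log2 difference of -3.73 ± 0.38 (adjusted p = 5.26e-09), as was NECTIN2 (-0.56 ± 0.18, 0.00880). MICA, CD47 and PVR differed by 0.29, 0.10 and -0.54 on the log2 scale and were not called (adjusted p = 0.0647, 0.741 and 0.0674).

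Against their controls, both senescence-inducing drugs raised some ligand genes and lowered others, while INK128 lowered all 5 of those it moved in SK-MEL-147 and 6 of 7 in A549 (6 of 9 with the replicate number as a block). In SK-MEL-147, 9 of the 10 genes passed the filter on low counts, and ULBP1 did not. Doxorubicin raised 3 of the 9 (30.9% of all 18516 genes tested were higher) and lowered 3 (28.9% were lower). The 3 lowered became 1 without control replicate 2 or 3 or with all 8 groups in 1 fit, and 5 in DESeq2. Palbociclib raised 3 (29.7% of all genes) and lowered 3 (28.7%). INK128 raised 0 of the 9 (29.8% of all genes), with 0 at an unadjusted p under 0.05 and 0 in DESeq2, and lowered 5 (28.9%). In A549, where all 10 were tested, doxorubicin raised 4 (22.4% of 19550 genes) and lowered 3 (20.9%). Palbociclib raised 4 (22.2%) and lowered 2 (21.1%). INK128 raised 1 (20.5%) and lowered 6 (19.7%). The A549 samples were taken as paired by replicate number, and with that number as a block INK128 raised 3 (27.4%), namely PDCD1LG2, CD274 and CD47, and lowered 6 (27.5%). With the block doxorubicin raised 5 (28.5%) and lowered 4 (27.8%), and palbociclib raised 5 (28.4%) and lowered 3 (27.8%). With library 2 alone as replicate 2, doxorubicin raised 2 and palbociclib raised 2 and lowered 1. Palbociclib also lowered 1 without A549 control replicate 2 or 3, without palbociclib replicate 1 or 3 and with libraries 2 and 2-2 kept apart, and 4 without the samples numbered 1. INK128 raised 2 with library 2-2 alone or the compared groups alone and 3 without the samples numbered 1. The counts in SK-MEL-147 under the senescence-inducing drugs were near the shares of all genes. The counts farthest from them were the 6 of 10 lowered by INK128 in A549 and, in SK-MEL-147, the 5 of 9 lowered and 0 of 9 raised by it.

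**Figure D2:**
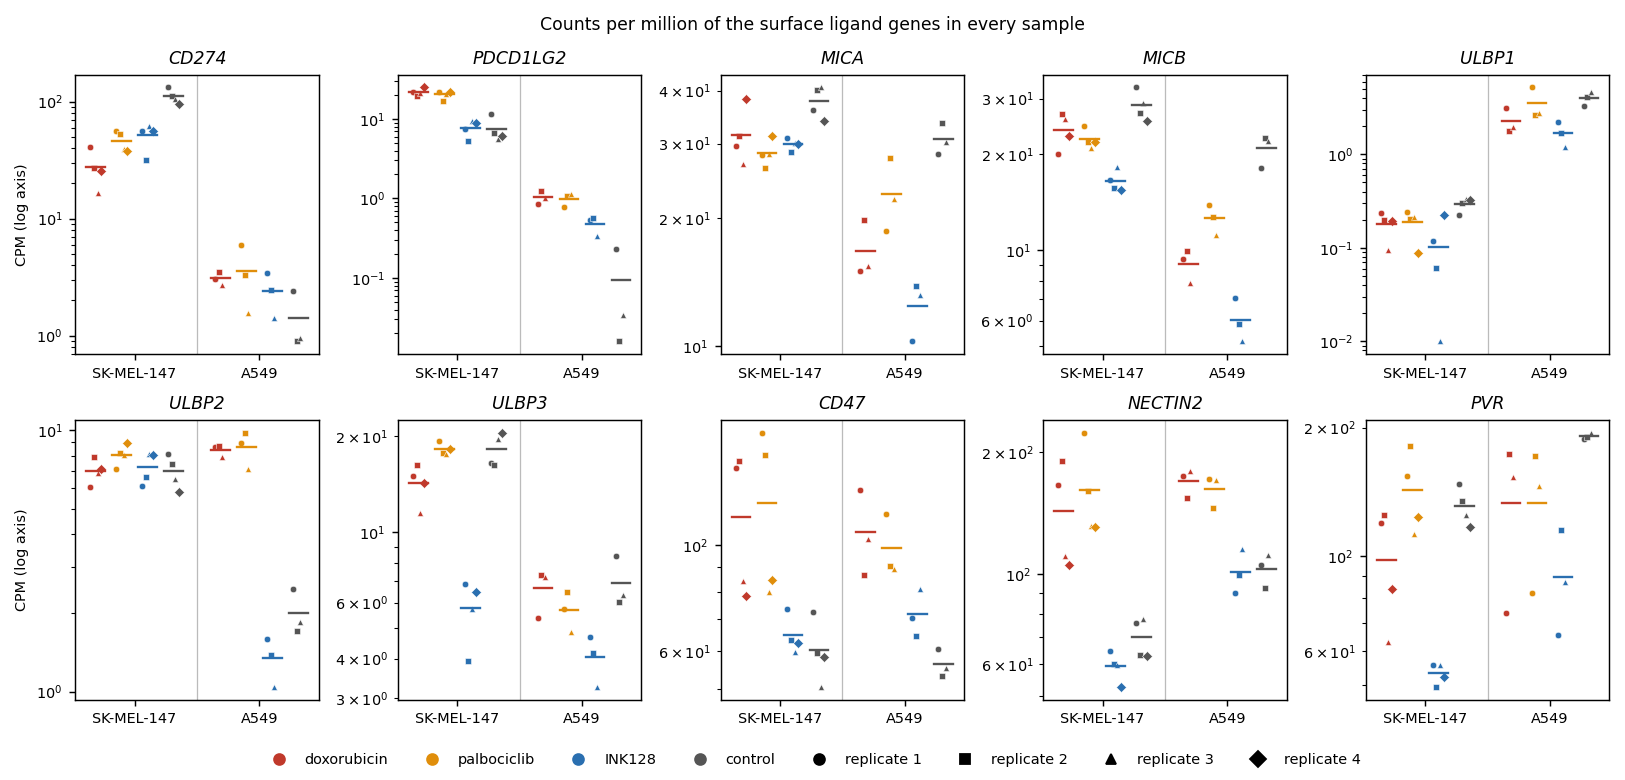
CPM of each gene in every sample (log axis), SK-MEL-147 left and A549 right within each panel; colours are groups, symbols are replicate numbers and lines are group means. A sample at 0 (ULBP1, INK128, SK-MEL-147 replicate 3) is drawn at the bottom of its panel.

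CD274 (ENSG00000120217, chromosome 9, 5450503 to 5470566, plus strand; gene positions are those of GENCODE 29 on GRCh38) fell in SK-MEL-147 with all 3 drugs. Its level was 41.3, 27.0, 16.6 and 25.3 CPM in the 4 doxorubicin samples and 56.5, 52.9, 39.0 and 37.6 CPM in the palbociclib samples. INK128 samples had 55.6, 31.9, 62.2 and 56.7 CPM, against 133, 111, 105 and 96.2 CPM in controls. No treated sample reached the lowest control. Log2 fold changes were -2.02 ± 0.24 with doxorubicin (adjusted p = 2.26e-06), -1.26 ± 0.24 with palbociclib (0.000257) and -1.11 ± 0.24 with INK128 (0.000832).

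In A549 the gene was scarce, and its values lay above the controls without being called. CD274 had 3.07, 3.48 and 2.72 CPM in doxorubicin samples, 5.92, 3.30 and 1.56 CPM with palbociclib and 3.40, 2.46 and 1.41 CPM with INK128, against 2.40, 0.893 and 0.959 CPM in controls. Control replicate 1 was high, and the INK128 and palbociclib groups overlapped the controls through it. Its log2 fold changes were 1.02 ± 0.50 with doxorubicin (adjusted p = 0.120), 1.23 ± 0.50 with palbociclib (0.0662) and 0.78 ± 0.50 with INK128 (0.235). Within each replicate number every drug sample was above its control, and with the number as a block all 3 were called, at 1.18 (adjusted p = 0.00946), 1.21 (0.00744) and 0.83 (0.0478). Without control replicate 1, doxorubicin and palbociclib were called, at 1.61 (0.0317) and 1.82 (0.0190), and without palbociclib replicate 3 palbociclib was, at 1.59 (0.0215). DESeq2 (0.0344), no filter (0.0371) and libraries 2 and 2-2 kept apart (0.0327) also called palbociclib, a fit of all 8 groups called it (0.0114) and doxorubicin (0.0298), and leaving out the samples numbered 1 called all 3 (0.00490 to 0.0341). The libraries added as replicate 2 disagreed with INK128, at 4.13 CPM in library 2 and 0.970 CPM in library 2-2.

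PDCD1LG2 (ENSG00000197646, chromosome 9, 5510570 to 5571254, plus strand), which lies downstream of CD274, did not follow it in SK-MEL-147. Doxorubicin samples had 21.5, 19.2, 21.3 and 25.1 CPM and palbociclib samples 22.0, 16.7, 20.9 and 21.8 CPM. With INK128 it had 7.57, 5.28, 9.38 and 8.85 CPM, against 11.5, 6.60, 5.65 and 6.18 CPM in controls. Both senescence groups lay wholly above the controls, and INK128 samples overlapped them. PDCD1LG2 rose by 1.53 ± 0.21 with doxorubicin (log2; adjusted p = 8.35e-06) and 1.44 ± 0.21 with palbociclib (1.72e-05), and INK128 gave 0.05 ± 0.21 (0.841).

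In A549, PDCD1LG2 was nearly silent in controls, with 7, 1 and 1 counts in the 3 samples. It reached 0.845, 1.23 and 1.01 CPM with doxorubicin, 0.779, 1.07 and 1.12 CPM with palbociclib and 0.532, 0.566 and 0.335 CPM with INK128, against 0.230, 0.0159 and 0.0343 CPM in controls. No drug group overlapped the controls, and the gene was called higher with each drug. The log2 fold changes were 3.51 ± 0.62 (doxorubicin, adjusted p = 0.000880), 3.45 ± 0.62 (palbociclib, 0.000979) and 2.52 ± 0.64 (INK128, 0.00898). Their size rests on the controls. Without control replicate 1 they were 5.24, 5.18 and 4.23, and without control replicate 2 they were 2.80, 2.75 and 1.80.

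**Figure D3:**
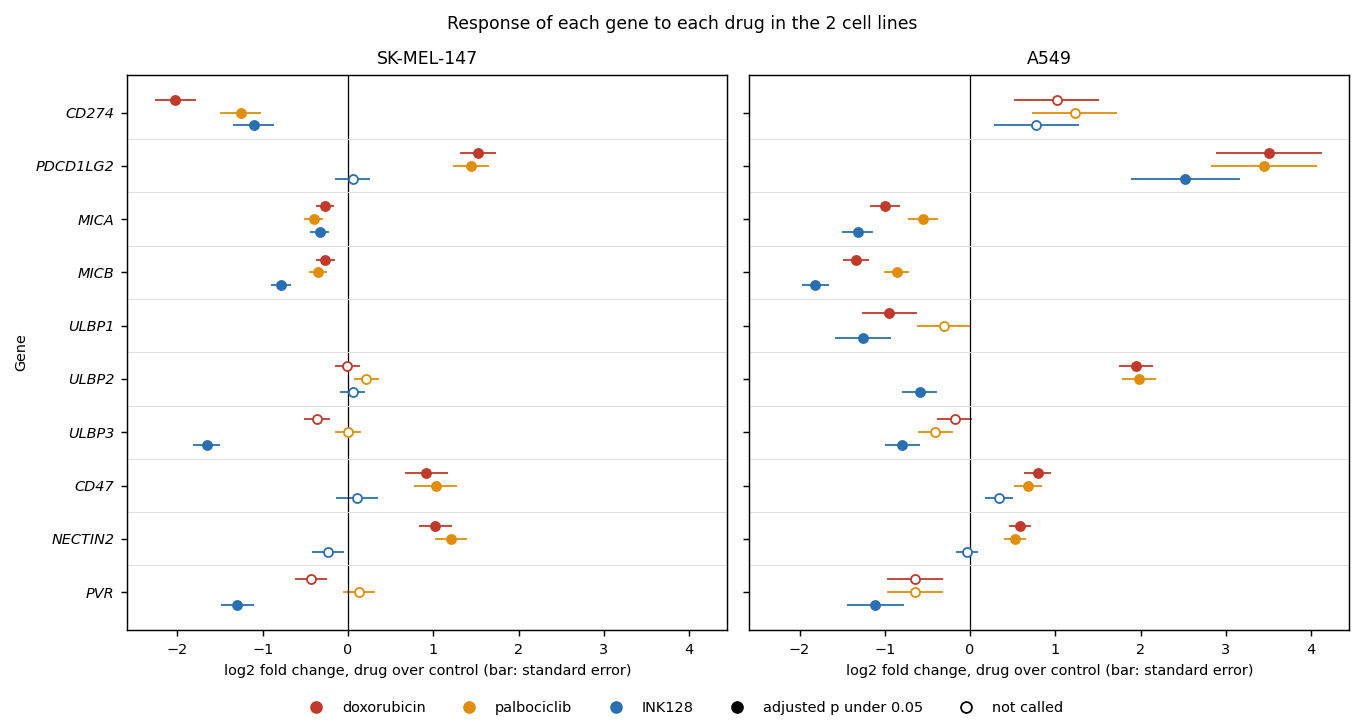
Log2 fold change of each gene over control (points; bars are standard errors) for doxorubicin, palbociclib and INK128, SK-MEL-147 left and A549 right; filled points have an adjusted p under 0.05 in edgeR. CD274 lies left of 0 in SK-MEL-147 and right of 0, unfilled, in A549, and ULBP1 was not tested in SK-MEL-147.

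MICA (ENSG00000204520, chromosome 6, 31399784 to 31415315) and MICB (ENSG00000204516, chromosome 6, 31494881 to 31511124), both on the plus strand, fell with every drug in both lines. MICA had 29.6, 31.3, 26.9 and 38.2 CPM with doxorubicin, 28.2, 26.2, 28.3 and 31.3 CPM with palbociclib and 30.9, 28.7, 30.0 and 29.9 CPM with INK128 in SK-MEL-147, against 36.0, 40.2, 40.7 and 33.9 CPM in controls. The palbociclib and INK128 groups lay below the controls, while doxorubicin replicate 4 lay among them. The log2 fold changes of MICA were -0.27 ± 0.11 (doxorubicin, adjusted p = 0.0396), -0.40 ± 0.11 (palbociclib, 0.00442) and -0.33 ± 0.11 (INK128, 0.0143).

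MICB in SK-MEL-147 had 20.1, 26.8, 25.9 and 22.9 CPM with doxorubicin, 24.5, 21.9, 21.0 and 21.9 CPM with palbociclib and 16.7, 15.7, 18.3 and 15.5 CPM with INK128, against 32.6, 27.1, 29.1 and 25.4 CPM in controls. INK128 samples were the lowest and did not overlap any other group. Its log2 fold changes were -0.27 ± 0.11 (doxorubicin, adjusted p = 0.0485), -0.35 ± 0.11 (palbociclib, 0.0120) and -0.79 ± 0.11 (INK128, 2.07e-05). Leaving out 1 library ended the doxorubicin call of MICA for control replicates 1, 2 and 3 and doxorubicin replicates 1, 2 and 3. It ended the doxorubicin call of MICB for control replicates 1, 2 and 3 and doxorubicin replicates 1 and 4 (adjusted p 0.0517 to 0.183 over both genes). Fitting without the filter, with the compared groups alone or with all 8 groups also ended both doxorubicin calls (0.0812 to 0.176). For MICB, DESeq2's size factors (0.0537) and library size alone (0.0668) did so as well. Leaving out control replicate 1 also ended the palbociclib call of MICB (0.0512), and leaving out control replicate 2 the INK128 call of MICA (0.0563).

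In A549 both genes fell clear of their controls. MICA had 15, 19.8 and 15.5 CPM with doxorubicin, 18.7, 27.7 and 22.2 CPM with palbociclib and 10.2, 13.8 and 13.2 CPM with INK128, against 28.3, 33.6 and 30.3 CPM in controls. MICB had 9.38, 9.95 and 7.89 CPM with doxorubicin, 13.9, 12.7 and 11.2 CPM with palbociclib and 7.06, 5.86 and 5.16 CPM with INK128, against 18.1, 22.5 and 22.1 CPM in controls. No treated sample of either gene reached a control, and INK128 gave the lowest values of both. MICA changed by -1.0 ± 0.18 with doxorubicin (log2; adjusted p = 0.000854), -0.55 ± 0.17 with palbociclib (0.0235) and -1.32 ± 0.18 with INK128 (0.000315). MICB changed by -1.33 ± 0.15 (4.85e-05), -0.86 ± 0.15 (0.000791) and -1.81 ± 0.15 (4.03e-05). The palbociclib call of MICA was lost without control replicate 2 or 3 or palbociclib replicate 1 or 3 (adjusted p 0.0548 to 0.0889), with libraries 2 and 2-2 kept apart (0.0508) and with library 2 alone (0.202). Those fits had no block, and taking the replicate number as a block kept the call (-0.57, adjusted p = 0.000462).

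MICA and MICB are close copies, and reads that match both can be shared between them in ways the counting does not record. MICA also shares 62 exonic bases with HCP5 on its own strand. Over the samples of a line, log2 CPM of MICA and MICB correlated at r = 0.50 in SK-MEL-147 (16 samples) and r = 0.90 in A549 (12 samples), values that share libraries and treatment groups.

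ULBP2 (ENSG00000131015, chromosome 6, 149942000 to 149949235, plus strand) rose with both senescence-inducing drugs in A549 and was not called in SK-MEL-147. In SK-MEL-147 it had 6.06, 7.89, 6.85 and 7.12 CPM with doxorubicin, 7.10, 8.22, 8.05 and 8.96 CPM with palbociclib and 6.12, 6.63, 8.10 and 8.09 CPM with INK128, against 8.16, 7.47, 6.50 and 5.79 CPM in controls. All groups overlapped, and the log2 fold changes were -0.01 ± 0.15, 0.21 ± 0.15 and 0.05 ± 0.14, none called (adjusted p = 0.955, 0.218 and 0.773). In A549 it had 8.67, 8.73 and 7.89 CPM with doxorubicin, 8.96, 9.78 and 7.10 CPM with palbociclib and 1.60, 1.38 and 1.04 CPM with INK128, against 2.46, 1.71 and 1.85 CPM in controls.

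The senescence groups of A549 lay far above the controls, and the INK128 group just below them. ULBP2 rose by 1.95 ± 0.20 with doxorubicin (log2; adjusted p = 2.57e-05) and 1.98 ± 0.20 with palbociclib (2.00e-05). With INK128 it was lower by a log2 fold change of -0.59 ± 0.21 (0.0402), a call that ended without control replicate 1 or 3 or INK128 replicate 2 or 3 (adjusted p 0.0607 to 0.132), without all samples numbered 1 (0.0920), with library 2 alone (0.0823), without the filter (0.0733) and with the compared groups alone (0.0809). Taking the replicate number as a block kept the INK128 call (-0.585, 0.0177).

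ULBP3 (ENSG00000131019, chromosome 6, 150063150 to 150069095, minus strand) fell with INK128 in both lines. SK-MEL-147 samples had 15, 16.2, 11.5 and 14.3 CPM with doxorubicin, 19.3, 17.7, 17.6 and 18.2 CPM with palbociclib and 6.86, 3.93, 5.75 and 6.50 CPM with INK128, against 16.5, 16.2, 19.6 and 20.5 CPM in controls. INK128 samples lay below every other sample of that line. The log2 fold change was -1.66 ± 0.16 with INK128 (adjusted p = 5.12e-07), with -0.36 ± 0.15 for doxorubicin (0.0505) and 0.001 ± 0.15 for palbociclib (0.994). The doxorubicin value was called in DESeq2 (0.0350), with its size factors (0.0489), with the compared groups alone (0.0463) and without doxorubicin replicate 2 (0.0499) or control replicate 1. In A549 ULBP3 had 5.38, 7.34 and 7.23 CPM with doxorubicin, 5.73, 6.49 and 4.85 CPM with palbociclib and 4.68, 4.16 and 3.25 CPM with INK128, against 8.43, 6.01 and 6.34 CPM in controls. INK128 samples were again the lowest, with a log2 fold change of -0.80 ± 0.20 (0.00944). Doxorubicin gave -0.18 ± 0.20 (0.490) and palbociclib -0.41 ± 0.20 (0.124).

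ULBP1 (ENSG00000111981, chromosome 6, 149964007 to 149973710, plus strand) was scarce in SK-MEL-147. SK-MEL-147 groups held 22, 20, 14 and 39 counts in all with doxorubicin, palbociclib, INK128 and in controls, too few to pass the filter, and no sample there was above 0.334 CPM. Without the filter INK128 gave -1.49 ± 0.57 (log2; adjusted p = 0.0440) there, with -0.72 (0.369) for doxorubicin and -0.69 (0.413) for palbociclib. In A549 it had 3.11, 1.80 and 1.94 CPM with doxorubicin, 5.22, 2.64 and 2.75 CPM with palbociclib and 2.20, 1.68 and 1.21 CPM with INK128, against 3.25, 4.07 and 4.62 CPM in controls. Replicate 1 was the highest in each drug group and the lowest in the controls. The log2 fold changes were -0.95 ± 0.32 with doxorubicin (adjusted p = 0.0343), -0.31 ± 0.32 with palbociclib (0.458) and -1.25 ± 0.33 with INK128 (0.0106). The doxorubicin call ended without control or doxorubicin replicate 2 or 3 (adjusted p 0.0871 to 0.124), with library 2 alone (0.0804) and with all 8 groups in the fit (0.0720). Taking the replicate number as a block kept the doxorubicin call (-1.01, 0.00886). Palbociclib was called once all 4 samples numbered 1 were left out, at -0.78 (0.00736).

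The other NKG2D ligands of the same chromosome 6 family, RAET1E, RAET1G and RAET1L, all rose in A549 with doxorubicin and with palbociclib (3 of 3 each), beside 22.4% and 22.2% of all genes, while in SK-MEL-147 1 rose and 1 fell with each. RAET1G averaged 13.4 CPM with doxorubicin, against 3.02 CPM in controls, a log2 fold change of 2.04 ± 0.23 (adjusted p = 4.12e-05), and RAET1L 2.84 against 0.763 CPM (1.79 ± 0.31, 0.000752). With palbociclib RAET1G reached 13.6 CPM (2.06 ± 0.23, 3.51e-05) and RAET1L 3.04 CPM (1.89 ± 0.31, 0.000526). INK128 lowered RAET1E in A549 to 0.892 CPM, against 1.85 CPM in controls (-1.08 ± 0.32, 0.0180). In SK-MEL-147 RAET1E fell with each drug, to 0.133, 0.278 and 0.259 CPM, against 1.67 CPM in controls (log2 -3.63, -2.67 and -2.63; adjusted p = 0.00303, 0.0148 and 0.0136). ULBP2 and RAET1L are near copies, and how shared reads were counted is not given in the sources used here.

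Some proteases that shed NKG2D ligands from the surface changed in SK-MEL-147. Of 7 genes in this list of proteases, a cofactor and an inhibitor, 6 were tested there, and 3 rose with doxorubicin and 3 with palbociclib, beside the 30.9% and 29.7% of all genes that rose there. ADAM17, a sheddase of MICA and MICB, averaged 123 CPM with doxorubicin, against 61.4 CPM in controls (log2 0.99 ± 0.13, adjusted p = 5.08e-06), and 141 CPM with palbociclib (1.20 ± 0.13, 7.61e-07). MMP14 averaged 1350 and 1450 CPM with doxorubicin and palbociclib, against 458 CPM in controls (1.56 ± 0.21 and 1.67 ± 0.21; 7.71e-06 and 4.38e-06). Of 7 tested in A549, 1 was higher and 1 lower with doxorubicin (22.4% and 20.9% of all genes), 1 higher with palbociclib (22.2%) and 2 lower with INK128 (19.7%), shares near those of all genes. INK128 lowered 4 (27.5%) with the replicate number as a block. The median log2 fold changes of the list were 0.66, 0.87 and 0.26 with doxorubicin, palbociclib and INK128 in SK-MEL-147 and -0.08, 0.03 and -0.23 in A549, and those of all genes lay between -0.002 and 0.032 over the 6 comparisons with control. The gene that rose was TIMP3, an inhibitor of these proteases, at 2.30 and 3.92 CPM with doxorubicin and palbociclib, against 0.440 CPM in controls (2.29 and 3.05; 0.0468 and 0.0129). ADAM10 was 174 CPM with INK128 in A549, against 245 CPM in controls (-0.51 ± 0.12, 0.00616). INK128 lowered 2 of 6 in SK-MEL-147 (28.9% of all genes), ADAM9 (154 CPM, against 268 CPM) and PDIA6 (256 CPM, against 351 CPM; adjusted p = 0.00328 and 0.0240).

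NECTIN2 (ENSG00000130202, chromosome 19, 44846175 to 44889228, plus strand) rose with both senescence-inducing drugs in both lines. In SK-MEL-147 it had 166, 190, 111 and 105 CPM with doxorubicin, 223, 161, 132 and 131 CPM with palbociclib and 64.9, 60.2, 59.7 and 52.8 CPM with INK128, against 75.9, 63.5, 77.7 and 62.9 CPM in controls. The senescence samples all exceeded the highest control, and replicates 1 and 2 exceeded 3 and 4. Its log2 fold changes were 1.02 ± 0.19 with doxorubicin (adjusted p = 0.000224), 1.21 ± 0.19 with palbociclib (4.95e-05) and -0.23 ± 0.19 with INK128 (0.304). In A549 NECTIN2 had 174, 154 and 180 CPM with doxorubicin, 172, 146 and 171 CPM with palbociclib and 90.2, 99.4 and 115 CPM with INK128, against 105, 92.7 and 112 CPM in controls. Again both senescence groups were wholly above the controls, by 0.59 ± 0.13 (0.00412) and 0.53 ± 0.13 (0.00736) on the log2 scale, and INK128 gave -0.04 ± 0.13 (0.843). With library 2 alone as A549 replicate 2, both A549 calls were lost (adjusted p = 0.0723 and 0.0921). NECTIN2 shares 128 exonic bases with the antisense gene AC011481.2, and the strand setting of the counting is not given in the sources used here.

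PVR (ENSG00000073008, chromosome 19, 44643798 to 44663583, plus strand) fell with INK128 in both lines. In SK-MEL-147 it had 120, 125, 63.0 and 84.0 CPM with doxorubicin, 154, 181, 113 and 124 CPM with palbociclib and 55.9, 49.5, 55.6 and 52.2 CPM with INK128, against 148, 135, 125 and 117 CPM in controls. INK128 samples were below all others, and the senescence groups overlapped the controls. The log2 fold changes were -0.43 ± 0.19 with doxorubicin (adjusted p = 0.0550), 0.13 ± 0.19 with palbociclib (0.578) and -1.30 ± 0.19 with INK128 (2.63e-05). The doxorubicin value was called in DESeq2 (0.0453), without the filter (0.0405) and without doxorubicin replicate 1 (0.0307) or 2 (0.0226).

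In A549 PVR had 73.9, 173 and 153 CPM with doxorubicin, 82.0, 172 and 146 CPM with palbociclib and 65.5, 115 and 87.3 CPM with INK128, against 189, 190 and 194 CPM in controls. Every drug sample was below every control, and replicate 1 was the lowest of each drug group. INK128 gave -1.11 ± 0.34 (log2; adjusted p = 0.0211), a call lost without INK128 replicate 1 (0.0754) or 3 (0.0622), or with library 2 alone (0.0785). Taking the replicate number as a block kept the INK128 call (-1.18, 0.000652). Doxorubicin gave -0.64 ± 0.33 (0.139) and palbociclib -0.65 ± 0.33 (0.138). With the replicate number as a block, these became -0.76 (adjusted p = 0.00776) and -0.74 (0.00837), and both were called. They were also called with library 2-2 alone (0.0435 and 0.0400). Without the 4 samples numbered 1 they shrank to -0.33 (0.0643) and -0.37 (0.0430). The 2 low senescence samples also had 18.3% and 17.3% of counts from mitochondrial genes, against 8.48% to 9.71% in the other doxorubicin and palbociclib samples, and its part in the PVR values was not tested. PVR shares 121 exonic bases with CEACAM19 on the same strand.

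CD47 (ENSG00000196776, chromosome 3, 108043094 to 108091862, minus strand) rose with the senescence-inducing drugs in both lines. In SK-MEL-147 it had 145, 151, 84.1 and 78.5 CPM with doxorubicin, 172, 155, 79.9 and 84.5 CPM with palbociclib and 73.7, 63.2, 59.6 and 62.4 CPM with INK128, against 72.5, 59.4, 50.5 and 58.5 CPM in controls. All senescence samples exceeded the controls, but replicates 1 and 2 did so by far more than 3 and 4. CD47 rose by 0.92 ± 0.25 with doxorubicin (log2; adjusted p = 0.00461) and 1.03 ± 0.25 with palbociclib (0.00214), and INK128 gave 0.11 ± 0.25 (0.730). Leaving out each sample of these groups in turn moved them between 0.78 and 1.09 with doxorubicin and between 0.84 and 1.20 with palbociclib, with the calls kept.

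In A549, CD47 had 131, 86.8 and 103 CPM with doxorubicin, 117, 90.5 and 89.3 CPM with palbociclib and 70.5, 64.6 and 80.8 CPM with INK128, against 60.6, 53.1 and 55.4 CPM in controls. The drug groups did not overlap the controls. CD47 rose by 0.79 ± 0.16 with doxorubicin (log2; adjusted p = 0.00228) and 0.68 ± 0.16 with palbociclib (0.00551). INK128 gave 0.34 ± 0.16 (0.118), and with the replicate number as a block 0.34 (0.0321). That comparison was also called without the samples numbered 1 (0.0168), with library 2-2 alone (0.0267) and with the compared groups alone (0.0439). With library 2 alone as replicate 2, the doxorubicin and palbociclib calls were lost (0.0563 and 0.0953).

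Other genes of the CD47 axis were examined beside CD47. LRP1, a phagocytic receptor for calreticulin, rose in all 6 comparisons with control. It averaged 361, 386 and 186 CPM with doxorubicin, palbociclib and INK128 in SK-MEL-147, against 52.3 CPM in controls (log2 2.78, 2.89 and 1.83; adjusted p = 2.33e-06, 1.86e-06 and 0.000166). In A549 it averaged 265, 211 and 90.6 CPM, against 35.8 CPM (2.76, 2.43 and 1.33; 9.76e-05, 0.000198 and 0.00861). SIRPA, the CD47 receptor, averaged 16.8 and 13.9 CPM with doxorubicin and palbociclib in SK-MEL-147, against 2.37 CPM in controls (2.81 and 2.56; 4.78e-05 and 0.000122). Of the 9 genes of the list, 7 were tested in SK-MEL-147, where 4 rose with doxorubicin (30.9% of all genes), 5 with palbociclib (29.7%) and 2 with INK128 (29.8%). Of 8 tested in A549, 4, 3 and 2 rose in that order (22.4%, 22.2% and 20.5%), and palbociclib raised 5 with the replicate number as a block (28.4%). The INK128 counts were near the shares of all genes. The list's median log2 fold changes were 0.74, 1.17 and 0.22 in SK-MEL-147 and 1.27, 1.18 and 0.26 in A549, in the same order. INK128 lowered 1 in each line, THBS1 in SK-MEL-147 (508 CPM, against 1210 CPM; -1.26, 0.0163) and CALR in A549 (506 CPM, against 744 CPM; -0.57, 0.0143). Bulk RNA does not tell fewer cells with a transcript apart from less of it in each cell.

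Palbociclib and doxorubicin were then set against each other. Of the 9 genes tested in SK-MEL-147, 0 differed between palbociclib and doxorubicin in edgeR's quasi-likelihood test, 0 in DESeq2 and 3 at an unadjusted p under 0.05. Of all genes, 0.0594% were called and 12.4% had an unadjusted p under 0.05. Those 3 were CD274, ULBP3 and PVR, by 0.77 ± 0.24, 0.36 ± 0.15 and 0.56 ± 0.19 on the log2 scale. In A549, 0 of 10 were called by either tool, 2 had an unadjusted p under 0.05 (MICA, 0.45 ± 0.18, and MICB, 0.47 ± 0.15), and of all genes 0% were called and 4.45% had an unadjusted p under 0.05. Taking the replicate number as a block also called 0 of 9 in SK-MEL-147 and 0 of 10 in A549. The share of all genes under that block was not computed. Its lowest adjusted p were 0.0574 (PVR, 0.57) and 0.0682 (CD274, 0.80) in SK-MEL-147 and 0.21 (MICA, 0.44) in A549. These tests do not show that the drugs act alike.

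INK128 differed from each of them in more of these genes than they did from each other, as it did among all genes. Most of its counts were near the shares of all genes, and 7 of 9 against doxorubicin in SK-MEL-147 was farthest from its share. Against doxorubicin INK128 differed in 7 of 9 genes in SK-MEL-147 (48.7% of all genes) and 5 of 10 in A549 (40.9%). Against palbociclib it differed in 6 of 9 (52.6%) and 5 of 10 (42.5%). In SK-MEL-147 it was lower than doxorubicin for PDCD1LG2, MICB, ULBP3, CD47, NECTIN2 and PVR and higher for CD274, whose samples overlapped, by 0.92 ± 0.24 (log2; adjusted p = 0.00471). Against palbociclib the widest gaps there were ULBP3 (-1.66 ± 0.16, 7.70e-07) and NECTIN2 (-1.44 ± 0.19, 1.81e-05). In A549 the widest gap was ULBP2, lower with INK128 by a log2 difference of -2.54 ± 0.21 against doxorubicin (1.46e-05) and -2.57 ± 0.21 against palbociclib (1.17e-05). NECTIN2 and MICB were also lower than with either drug. With the replicate number as a block, MICA joined the calls against doxorubicin in A549 (-0.32, adjusted p = 0.0169) and CD47 those against palbociclib (-0.34, 0.0324). The comparisons with a drug and with the control share samples, so their values are not independent. The A549 count against doxorubicin was 2 without INK128 replicate 2 and 3 without doxorubicin replicate 2 or 3 or INK128 replicate 3. The A549 count against palbociclib was 8 without the samples numbered 1 and 3 with library 2 alone.

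The lines were then compared in their responses, by testing the SK-MEL-147 response minus the A549 response over all 8 groups. For doxorubicin 5 of 10 genes differed (19.8% of the 21761 genes tested), for palbociclib 3 (19.2%) and for INK128 5 (11.9%). CD274 differed for every drug, with log2 differences of -3.19 ± 0.53 (doxorubicin, adjusted p = 0.000121), -2.63 ± 0.53 (palbociclib, 0.000877) and -1.92 ± 0.53 (INK128, 0.0177). PDCD1LG2 also differed each time, by -2.17 ± 0.58 (0.00835), -2.20 ± 0.58 (0.00844) and -2.55 ± 0.59 (0.00538). These rest on the scarce A549 controls. Without A549 control replicate 1 they were -3.82, -3.85 and -4.21, and without replicate 2 they were -1.39, -1.42 and -1.79 and none was called (adjusted p = 0.101, 0.0918 and 0.0558). With library 2 alone the doxorubicin difference was not called (0.0515). There the response was smaller in SK-MEL-147, from a baseline far above that of A549. ULBP2 differed for doxorubicin (-2.08 ± 0.24, 1.63e-06) and palbociclib (-1.90 ± 0.24, 6.17e-06).

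MICA and MICB fell less in SK-MEL-147 than in A549 with doxorubicin, by 0.61 ± 0.20 (adjusted p = 0.0283) and 0.95 ± 0.19 (0.000616), and with INK128, by 0.97 ± 0.20 (0.00178) and 1.01 ± 0.19 (0.000787). ULBP3 fell further in SK-MEL-147 with INK128 (-0.88 ± 0.26, 0.0248). The MICA difference for doxorubicin was lost without A549 control replicate 2, A549 doxorubicin replicate 1 or 3 or SK-MEL-147 doxorubicin replicate 4 (0.0709 to 0.0867), without all A549 samples numbered 1 (0.0513), with library 2 alone (0.0705) and without the filter (0.132). The CD274 difference for INK128 was lost without A549 INK128 replicate 1 or A549 control replicate 2 or 3 (0.0615 to 0.0765) and with library 2-2 alone (0.0837). That of ULBP3 was lost without A549 INK128 replicate 1 or 2, A549 control replicate 2 or 3, SK-MEL-147 INK128 replicate 2 or SK-MEL-147 control replicate 3 or 4 (0.0516 to 0.0817), with library size alone (0.0517), without the filter (0.0565) and with library 2 alone (0.157). CD47, NECTIN2 and PVR were not called as different for any drug, with differences of -0.25 to 0.64 on the log2 scale and standard errors of 0.26 to 0.37. With the replicate number as a block, the palbociclib differences of NECTIN2 (0.52, adjusted p = 0.0493) and PVR (0.72, 0.0361) were called. The median over all genes was -0.10 for doxorubicin and palbociclib and -0.03 for INK128. The doxorubicin count was 3 without A549 control replicate 2. The palbociclib count was 5 without SK-MEL-147 control replicate 1. The INK128 count was 2 without A549 control replicate 2 and 3 without A549 control replicate 3 or INK128 replicate 1.

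**Figure D4:**
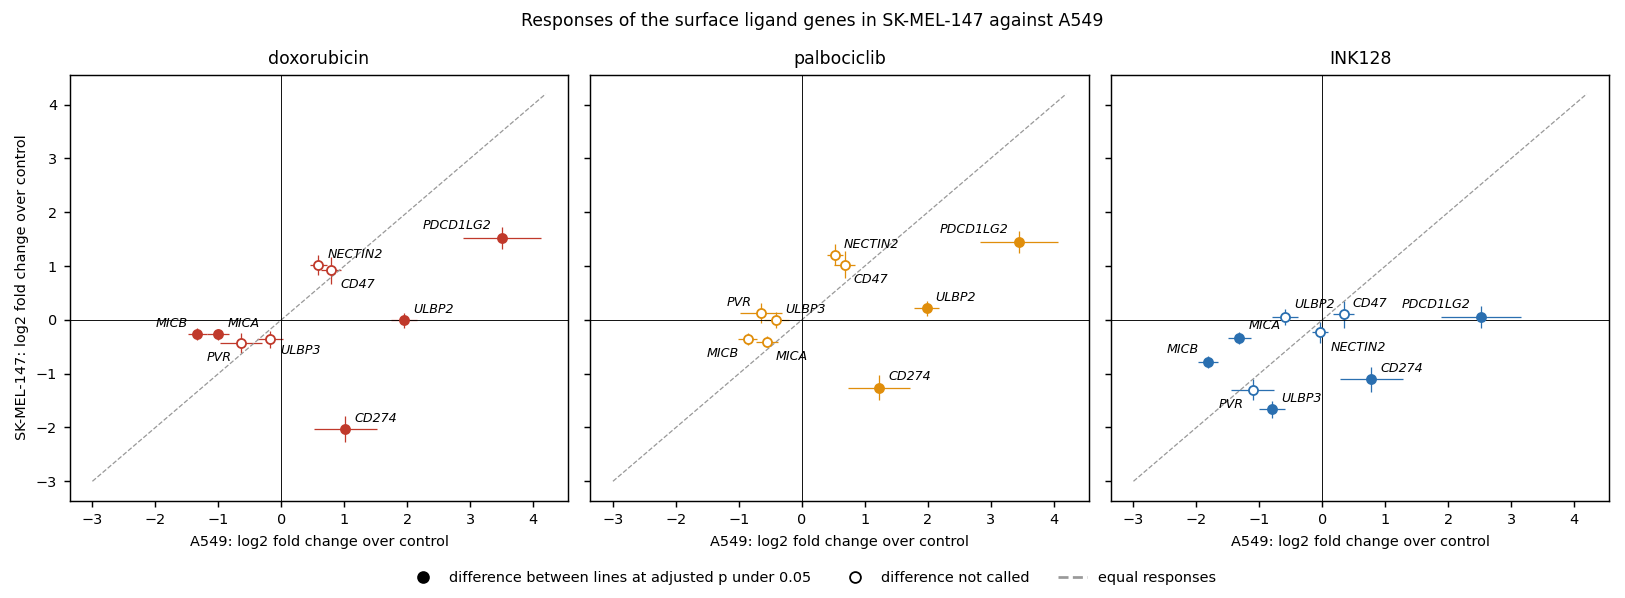
Log2 fold change over control in SK-MEL-147 (vertical axis) against A549 (horizontal axis), 1 panel per drug, with standard errors; filled points differ between the lines at an adjusted p under 0.05 and the dashed line marks equal responses. CD274 lies in the lower right of each panel and CD47 lies near the dashed line.

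Of 17 genes that regulate PD-L1, all tested, 11 rose and 2 fell with doxorubicin in SK-MEL-147 (30.9% and 28.9% of all genes) and 10 rose and 2 fell with palbociclib (29.7% and 28.7%). In A549, 6 rose and 1 fell with doxorubicin (22.4% and 20.9%) and 7 rose and 1 fell with palbociclib (22.2% and 21.1%). The list's median log2 fold changes were 0.60, 0.59 and 0.18 with doxorubicin, palbociclib and INK128 in SK-MEL-147 and 0.52, 0.44 and 0.26 in A549. STAT2, a transducer of interferon signals, averaged 190 and 153 CPM with doxorubicin and palbociclib in SK-MEL-147, against 35.3 CPM in controls (log2 2.42 and 2.12; adjusted p = 9.20e-07 and 4.16e-06). In A549 it averaged 47.6 and 69.2 CPM, against 16.7 CPM (1.38 and 1.92; 0.000481 and 5.33e-05). IFNGR1, a chain of the interferon-gamma receptor, averaged 310, 325 and 136 CPM with doxorubicin, palbociclib and INK128 in A549, against 52.7 CPM (2.42, 2.50 and 1.35; 1.32e-05, 8.88e-06 and 0.000770). With INK128, 6 rose and 4 fell in SK-MEL-147 (29.8% and 28.9% of all genes) and 3 rose and 1 fell in A549 (20.5% and 19.7%), or 5 and 2 with the replicate number as a block (27.4% and 27.5%). JAK2 was higher in SK-MEL-147 (32.1 CPM, against 14.2 CPM; 1.17 ± 0.17, 2.35e-05). SPOP, an adaptor for PD-L1 degradation, was lower in SK-MEL-147 with each drug, at 39.2, 40.0 and 33.8 CPM, against 47.5 CPM (-0.29, -0.25 and -0.49; 0.0119, 0.0291 and 0.000283).

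Interferon-stimulated genes rose with senescence in both lines. Of 22 in the list 21 were tested in each line, and 20 rose with doxorubicin (30.9% of all genes) and 19 with palbociclib (29.7%) in SK-MEL-147, and 19 (22.4%) and 20 (22.2%) in A549. With INK128, 2 rose and 2 fell in SK-MEL-147 (29.8% and 28.9%) and 3 rose and 2 fell in A549 (20.5% and 19.7%), where 8 rose with the replicate number as a block (27.4%). The list's median log2 fold changes were 4.17, 4.12 and -0.38 with doxorubicin, palbociclib and INK128 in SK-MEL-147 and 4.47, 6.03 and 0.68 in A549. Their summed level in SK-MEL-147 was 2360, 3090, 790 and 367 CPM with doxorubicin and 3940, 2160, 442 and 305 CPM with palbociclib, in the order of the replicate numbers, against 131 to 182 CPM in controls. Replicates 1 and 2, the samples with more CD47 and NECTIN2, were thus the higher ones in this sum too. In A549 it was 1220, 322 and 346 CPM with doxorubicin and 4130, 676 and 542 CPM with palbociclib, against 159 to 186 CPM in controls. The part of this sum in the ligand values was not tested. In every doxorubicin and palbociclib sample of SK-MEL-147 this sum was above the controls, and CD274 was below them.

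**Figure D5:**
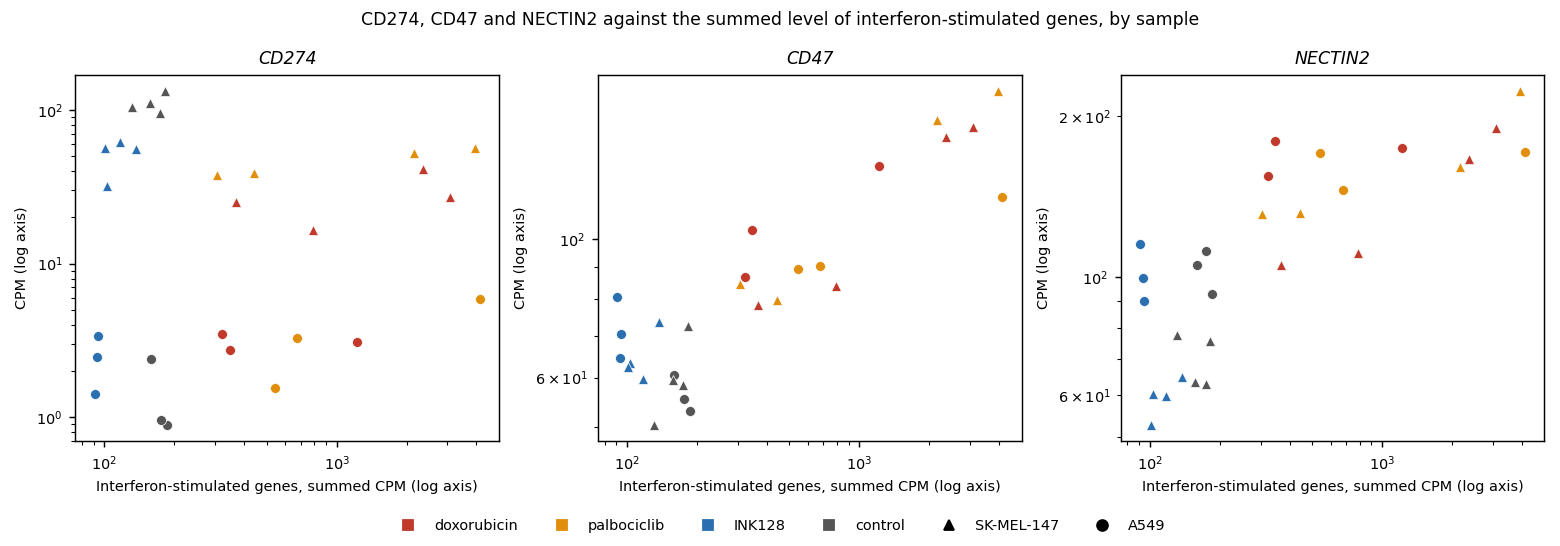
CPM of CD274, CD47 and NECTIN2 against the summed CPM of the interferon-stimulated genes, 1 point per sample (both axes log; triangles SK-MEL-147, circles A549; colours are groups). SK-MEL-147 controls have the highest CD274 at a low sum, while within that line CD47 and NECTIN2 are highest in the samples with the highest sums.

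The list of other inhibitory ligands also held enzymes and complement inhibitors, which are not ligands. Of the genes on it, 10 of the 13 tested in SK-MEL-147 rose with doxorubicin (30.9% of all genes) and 10 with palbociclib (29.7%). In that line 1 fell each time (28.9% and 28.7%). In A549 13 and 14 of 17 rose (22.4% and 22.2%) and 1 fell each time (20.9% and 21.1%). The list's median log2 fold changes were 1.49, 1.39 and 1.09 with doxorubicin, palbociclib and INK128 in SK-MEL-147 and 1.25, 1.73 and 0.09 in A549. HLA-E, the ligand of the NK receptor NKG2A, averaged 523 CPM with doxorubicin in SK-MEL-147, against 92.2 CPM in controls (log2 2.50 ± 0.25, adjusted p = 2.67e-07). VTCN1 (B7-H4) averaged 4.72 and 5.56 CPM with doxorubicin and palbociclib in A549, against 0.172 CPM (4.64 and 4.87; 0.000210 and 0.000146). VSIR (VISTA) was lower there, at 29.8 and 29.4 CPM, against 52.6 CPM (-0.95 and -0.97; 0.0127 and 0.0114). NT5E, an ectoenzyme that makes adenosine, was lower in SK-MEL-147 (121 and 125 CPM, against 285 CPM; -1.24 and -1.20; 0.0107 and 0.0134). INK128 raised 5 of 13 in SK-MEL-147 (29.8% of all genes), among them the complement inhibitor CD59 (571 CPM, against 210 CPM; 1.45 ± 0.21, 2.55e-05). It raised 3 of 17 in A549 (20.5%), and both raised counts were near the shares of all genes. The lowered counts, 0 of 13 and 0 of 17, were below the shares of all genes (28.9% and 19.7%). These statements refer to the fit without the replicate number as a block. With the block, INK128 raised 7 of 13 in SK-MEL-147, where the share of all genes under the block was not computed. In A549 the block lowered 2 (27.5%) that were not called without it.

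Of 10 activating and adhesion ligands tested in SK-MEL-147, 2, 1 and 3 rose with doxorubicin, palbociclib and INK128 (30.9%, 29.7% and 29.8% of all genes) and 3 fell each time (28.9%, 28.7% and 28.9%). Of 13 tested in A549, 5, 4 and 3 rose (22.4%, 22.2% and 20.5%) while 1 fell with palbociclib (21.1%) and 2 with INK128 (19.7%). In A549 4, 5 and 4 fell with the replicate number as a block (27.8%, 27.8% and 27.5%). Most of these counts were near the shares of all genes. The median log2 fold changes were 0.11, 0.03 and -0.02 in SK-MEL-147 and 0.51, 0.32 and 0.09 in A549. CADM1, a ligand of the receptor CRTAM, averaged 164, 145 and 94.8 CPM in SK-MEL-147, against 40.2 CPM in controls (log2 2.02, 1.86 and 1.24; adjusted p = 3.20e-05, 7.66e-05 and 0.00253). NCR3LG1 (B7-H6), the ligand of NKp30, was lower with doxorubicin and palbociclib (6.03 and 6.74 CPM, against 12.8 CPM; -1.09 and -0.92; 0.000104 and 0.000520). ICAM1, the adhesion partner of LFA-1, averaged 29.8, 36.8 and 17.3 CPM in A549, against 3.92 CPM (2.80, 3.10 and 2.13; 0.00101, 0.000538 and 0.00586).

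The list of death receptor genes also held genes of proteins that act inside the cell and are not receptors. Of the genes on this mixed list, 7 were tested in SK-MEL-147. There doxorubicin raised 4 and lowered 1 (30.9% and 28.9% of all genes). Palbociclib raised 4 and lowered 1 (29.7% and 28.7%), and INK128 raised 3 and lowered 2 (29.8% and 28.9%). Of 8 tested in A549, doxorubicin raised 2 and lowered 1 (22.4% and 20.9%), palbociclib raised 1 and lowered 2 (22.2% and 21.1%), and INK128 lowered 5 (19.7%). Doxorubicin lowered 2 (27.8%) and palbociclib raised 2 (28.4%) there with the replicate number as a block. The senescence counts in A549 were near the shares of all genes. The median log2 fold changes were 0.76, 0.74 and 0.50 with doxorubicin, palbociclib and INK128 in SK-MEL-147 and 0.04, 0 and -0.54 in A549. FAS averaged 85.4 CPM with doxorubicin in A549, against 32.5 CPM in controls (log2 1.27 ± 0.23, adjusted p = 0.00117), and 16.6 CPM with INK128 (-0.99 ± 0.24, 0.00667). Receptors that belong on immune cells were mostly too low to test, with 4 of 13 tested in each line. In SK-MEL-147 2, 2 and 1 of these rose, 2 fell with doxorubicin and 1 with palbociclib, and in A549 2 rose with each drug, too few genes to set against the shares above. In A549 1 also fell with doxorubicin and 1 with palbociclib when the replicate number was a block. KLRC1 (NKG2A) averaged 1.48, 1.37 and 1.75 CPM in A549 with doxorubicin, palbociclib and INK128, against 0.0702 CPM in controls (3.92, 3.82 and 4.31; 0.00548, 0.00619 and 0.00374).

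To describe the patterns further, each gene was matched with the protein-coding genes whose log2(CPM + 0.5) followed it most closely over all 28 samples, each line centred on its own mean, among 11139 candidates. CD274 was followed best by SERPINB7 (r = 0.88), TFPI2 (0.83) and MGST1 (0.81), and PDCD1LG2 by TSPAN10 (0.94), IGFBP7 (0.94) and TSPAN3 (0.93). MICA was matched by RRP36, MYEOV and GSR (0.82 to 0.84) and MICB by CCNYL1, MARS1 and YARS1 (0.90 to 0.91). ULBP1 went with HAX1, NDUFA9 and MRPS22 (0.82 to 0.88), ULBP2 with RAET1L (0.97), SEC22B and OSBPL2, and ULBP3 with DEGS1, BAG2 and HSPA4 (each 0.90). CD47 was matched by UBA7, TLR3 and TRANK1 (0.95 to 0.96), NECTIN2 by ITGA5, SHISA5 and CASP10 (0.95), and PVR by SLC27A4, SEC23IP and TFRC (0.90 to 0.91). Within the set, CD47 and NECTIN2 correlated at r = 0.91 over the 16 SK-MEL-147 samples and 0.87 over the 12 A549 samples. CD274 and PDCD1LG2 gave -0.61 in SK-MEL-147 and 0.68 in A549. The points of all these correlations share libraries and treatment groups, and some matches rest mostly on A549. SEC22B followed ULBP2 in A549 (0.97) but hardly in SK-MEL-147 (0.205), and so did OSBPL2 (0.949 and 0.259). MYEOV followed MICA at 0.925 in A549 and 0.473 in SK-MEL-147.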

How the data were processed

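The authors deposited whole-number counts of reads per gene for 32 libraries made with a stranded mRNA kit, per the labels' protocols. Per the submitters' processing notes, reads were aligned with STAR 2.7.10a to GRCh38.p13 and counted with featureCounts. The annotation release and the strand setting are not given in the sources used here.

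Counts were tested with edgeR 4.0.16 in R 4.3.3, with limma 3.58.1: TMM scaling, filterByExpr by group, glmQLFit and 2-sided glmQLFTest over the 4 groups of a line. All 8 groups entered the comparisons between lines. P-values were Benjamini-Hochberg adjusted over all genes tested, and standard errors were taken from the log2 fold change and the F statistic. CPM use TMM-scaled totals. The 10 genes and the lists were chosen with earlier results of these data known. All 10 are named, and each list names at most 2 called genes per direction and comparison with a mean of at least 1 CPM in the higher group (the largest folds). Alternatives were DESeq2 1.42.0, other scalings, no filter, a replicate block, other samples in the fit, other uses of A549 libraries 2 and 2-2, and each sample left out.

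Replicate numbers were taken to pair samples where, for each number, deviations from the group means correlated above 0.1. All 6 A549 comparisons met this (lowest 0.118, highest 0.849), as did 3 of 6 in SK-MEL-147. There INK128 counted as paired with control and with doxorubicin, but doxorubicin did not with control (lowest 0.02). The rule thus does not settle whether the numbers pair the samples of that line.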

Additional observations from a re-analysis of the deposited data

Results flagged for a closer look

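In the SK-MEL-147 controls, PDCD1LG2 of replicate 1 (11.5 CPM, against 5.65 to 6.60 CPM in the other 3) was far from the rest, its gap being 0.837 of the group's range. Of 40 groups tested this was 1, and chance gives such a sample in about 1 in 20 groups.

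The other values differed between the lines when the difference in response was tested (SK-MEL-147 minus A549, log2). For doxorubicin the differences were -3.19 for CD274, -2.17 for PDCD1LG2, 0.61 for MICA, 0.95 for MICB and -2.08 for ULBP2. For palbociclib they were -2.63 for CD274, -2.20 for PDCD1LG2 and -1.90 for ULBP2. For INK128 they were -1.92 for CD274, -2.55 for PDCD1LG2, 0.97 for MICA, 1.01 for MICB and -0.88 for ULBP3. Without A549 control replicate 2, none of the PDCD1LG2 differences was called (adjusted p = 0.101, 0.0918 and 0.0558). The causes were not tested.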

How the results depend on the processing

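Of 57 fold changes against control, 37 were called. None of these turned sign under any alternative, 25 were called under each one, and 12 were lost under at least 1. Of the 20 not called, 9 were called under at least 1 alternative. With library 2 alone as A549 replicate 2, the count called was 4 for doxorubicin against control, 3 for palbociclib against control, 3 for INK128 against palbociclib and 3 for the doxorubicin difference between lines. INK128 against doxorubicin in A549 gave 2 without the filter and 3 with the compared groups alone, and INK128 against palbociclib gave 8 without the samples numbered 1. Palbociclib against doxorubicin in SK-MEL-147 gave 1 without the filter. Leaving out each sample, INK128 against doxorubicin in A549 gave 2 to 5, and the line differences 3 to 5 (doxorubicin), 2 to 5 (palbociclib) and 2 to 5 (INK128).

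With the replicate block, the palbociclib difference between lines gave 5 (NECTIN2 and PVR added), and INK128 in A549 raised 3 of the 10 genes, against 1 without it. In comparisons not taken as paired, the block called ULBP3 (-0.36, adjusted p = 0.0451) and PVR (-0.47, 0.0103) for doxorubicin in SK-MEL-147, so that 5 were lowered, against 3 without it. Among the other lists it there raised 3 activating ligands with palbociclib, against 1, and lowered 1 shedding gene with doxorubicin that was not called without it. The block lies within each line, so between untreated lines it compares SK-MEL-147 at replicate 4 with A549 at replicate 1. Its values there for MICA (0.57, adjusted p = 0.000864) and MICB (0.30, 0.105) are therefore not differences of the line means.

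Sign changes were limited to uncalled values near 0. ULBP3 with doxorubicin in A549 was 0.143 without the samples numbered 1. NECTIN2 with INK128 in A549 was 0.003 with library 2-2 alone, 0.078 without the samples numbered 1 and -0.146 to 0.049 leaving out each sample. In SK-MEL-147, ULBP2 with doxorubicin was 0.007 with the compared groups alone, 0.001 with all 8 groups in 1 fit and -0.093 to 0.082 leaving out each sample. ULBP3 with palbociclib was -0.010 with library size alone, -0.013 without the filter and -0.038 to 0.059 leaving out each sample. PDCD1LG2 and ULBP2 with INK128 ran from -0.068 to 0.345 and from -0.034 to 0.143 leaving out each sample. The causes were not tested. Low counts limit PDCD1LG2 in A549 controls (7, 1 and 1 counts) and ULBP1 in SK-MEL-147 (14 to 39 counts per group).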
